A study of Mus musculus with 40 samples.

Results

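Hepatic expression was examined for 10 acute phase genes, Saa1, Saa2, Saa3, Orm1, Orm2, Orm3, Lcn2, Hp, Hpx and Apcs, which were chosen by symbol from the 55359 genes in the count tables. All 10 passed the filter on low counts, as did 15373 genes in all. The livers came from male C57BL/6 mice gavaged with TCDD (a chlorinated dioxin, a persistent contaminant that activates the aryl hydrocarbon receptor) in sesame oil every 4 days for 28 days. The labels give an age of 30 days at the start of the study and 58 days at its end, while the methods place the first gavage slightly earlier. The 40 mice formed 8 groups of 5: sesame oil vehicle, and TCDD at 7 doses that ran from 0.03 to 30 μg/kg. Each library held RNA from the liver of 1 mouse, and the labels give no difference between groups other than dose. In bulk liver RNA, fewer cells of a type and less RNA per cell cannot be told apart.

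Acute phase proteins are plasma proteins whose production by hepatocytes changes when tissue is injured or infected. Cytokines of the interleukin-6 family act through the transcription factor STAT3, and interleukin-1 and tumor necrosis factor act through NF-kB and C/EBP factors, to switch on their genes. Serum amyloid A proteins (Saa1, Saa2, Saa3) bind high density lipoprotein and retinol, orosomucoids (Orm1, Orm2, Orm3) carry drugs and dampen inflammation, lipocalin 2 (Lcn2) captures bacterial siderophores, haptoglobin (Hp) and hemopexin (Hpx) capture free hemoglobin and heme, and serum amyloid P component (Apcs) is the major acute phase pentraxin of the mouse. Lcn2 is also made by neutrophils and injured epithelium, and Saa3 by macrophages and adipocytes.

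The libraries held 15.5 M to 21.0 M counts in genes, with a median of 17.5 M. All 80 replicate pairs differed beyond sampling noise (chi-square over its degrees of freedom at least 10.2). Cyp1a1, the standard target of the receptor, lay between 0.979 and 2.33 CPM (gene counts relative to library size, with TMM normalization factors) in the vehicle livers and was at least 109 CPM in every treated liver. Hepatocyte markers, 8 genes led by albumin, summed to 100436 to 122245 CPM in vehicle livers and to 30850 to 64737 CPM at 30 μg/kg. Sample titles carry numbers up to 27 (19 libraries) or from 28 (21 libraries), and no member differed between these sets past an adjusted p of 0.05 in edgeR's test. Apcs came nearest, at -0.45 on the log2 scale with an adjusted p of 0.0694.

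Proximal promoters are shown for 6 members, because those of Saa1 and Saa2, which were highest in the same mice, are nearly identical, and to set them beside those of Saa3, Orm2, Lcn2 and Apcs. The 250 bases before the start of the gene came from RefSeq on GRCm38.p6, written 5′ to 3′ on the strand of the gene. Capitals mark letters that match a C/EBP-like motif (TTGCNNAA), an NF-kB-like motif (GGG and CC around a gap of 5 bases) or a STAT-like motif (TTCNNNGAA) on either strand, and the matches do not overlap. The windows are chr7:46742981-46743230, minus strand for Saa1, chr7:46751583-46751832, plus strand for Saa2, chr7:46715677-46715926, minus strand for Saa3, chr4:63362199-63362448, plus strand for Orm2, chr2:32387740-32387989, minus strand for Lcn2, and chr1:172895055-172895304, minus strand for Apcs.
Saa1: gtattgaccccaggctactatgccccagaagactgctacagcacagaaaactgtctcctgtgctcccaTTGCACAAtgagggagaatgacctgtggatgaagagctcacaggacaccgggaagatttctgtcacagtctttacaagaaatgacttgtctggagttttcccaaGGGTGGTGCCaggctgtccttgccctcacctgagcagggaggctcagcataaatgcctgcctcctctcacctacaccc
Saa2: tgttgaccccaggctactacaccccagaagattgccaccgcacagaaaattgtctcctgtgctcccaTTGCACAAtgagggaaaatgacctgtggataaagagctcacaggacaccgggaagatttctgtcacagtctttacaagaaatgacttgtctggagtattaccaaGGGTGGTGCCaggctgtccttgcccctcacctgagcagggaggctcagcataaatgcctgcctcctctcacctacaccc
Saa3: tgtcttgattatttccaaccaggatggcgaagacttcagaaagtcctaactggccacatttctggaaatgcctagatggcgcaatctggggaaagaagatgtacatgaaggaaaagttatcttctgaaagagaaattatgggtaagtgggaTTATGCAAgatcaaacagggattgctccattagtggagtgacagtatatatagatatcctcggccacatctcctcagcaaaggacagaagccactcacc
Orm2: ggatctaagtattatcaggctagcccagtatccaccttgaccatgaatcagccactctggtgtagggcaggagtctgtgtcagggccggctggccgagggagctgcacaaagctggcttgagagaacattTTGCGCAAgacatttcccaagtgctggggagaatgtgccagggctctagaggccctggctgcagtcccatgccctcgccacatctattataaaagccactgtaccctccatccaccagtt
Lcn2: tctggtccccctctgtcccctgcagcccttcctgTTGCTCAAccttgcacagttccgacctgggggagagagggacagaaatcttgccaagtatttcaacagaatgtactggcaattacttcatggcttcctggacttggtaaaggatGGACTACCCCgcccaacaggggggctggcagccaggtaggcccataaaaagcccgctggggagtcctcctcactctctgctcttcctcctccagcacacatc
Apcs: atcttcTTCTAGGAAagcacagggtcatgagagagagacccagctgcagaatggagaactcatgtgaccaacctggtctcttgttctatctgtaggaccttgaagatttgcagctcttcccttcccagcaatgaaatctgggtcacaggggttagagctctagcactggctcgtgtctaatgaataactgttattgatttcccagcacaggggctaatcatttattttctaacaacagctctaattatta
Of the 10 members, 8 had a promoter entry, and Orm1 and Hp had none. The C/EBP-like letters occurred in 7 of the 8 (Saa1, Saa2, Saa3, Orm2, Orm3, Lcn2 and Hpx) and in 9.57% of all 32841 promoters of that length. The NF-kB-like letters occurred in Saa1, Saa2 and Lcn2, and in 45.8% of all promoters. STAT-like letters were found in Apcs, at -244 to -236 from the start, and in 7.02% of all promoters. The core of the dioxin response element (GCGTG), to which the aryl hydrocarbon receptor binds, was not in any of the 8 windows and was in 28.2% of all promoters. These motifs were chosen after the promoters had been read, and a match is only a match of letters. The Saa1 and Saa2 windows were 94.8% identical, and their transcripts, at 609 and 606 bases, were 93.9% identical. Saa3 was further away, with 52.2% identity to Saa1 in the promoter and 64.3% in the transcript. Transcripts of Orm1 and Orm2 were 91% identical. No stretch of 150 bases in a member's transcript occurred in another gene's, but reads between near-identical copies can be lost as multimapped, so the split between Saa1 and Saa2 and between the Orm genes is less certain than their sums.

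The first question was at which dose each member departed from vehicle. A gene was called when its Benjamini-Hochberg adjusted p in edgeR's quasi-likelihood test was under 0.05 and its fold change was at least 1.5. No member was called at 0.03, 0.1 or 0.3 μg/kg, where 0.0195%, 0.0976% and 0.468% of all tested genes were called. In edgeR's test the count at an unadjusted p under 0.05 was also 0 at each of these doses, and DESeq2 and limma called 0. At 1 μg/kg, 3 members were called higher (Saa1, Saa2 and Orm2) against 2.78% of all genes called in either direction. At 3 μg/kg, 4 were called higher (Saa1, Saa2, Saa3 and Lcn2) against 6.75% of genes. At 10 μg/kg, Saa2 and Lcn2 were higher and Orm1, Hp and Apcs were lower, 5 members in all against 21.8% of genes. At 30 μg/kg, Saa3, Orm2, Orm3 and Lcn2 were higher and Orm1, Hp and Apcs were lower, 7 members against 42.1% of genes. Hpx was not called at any dose. The list thus moved in both directions, with a median log2 fold change of 1.24 at 30 μg/kg beside 0.03 over all tested genes.

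**Figure D1:**
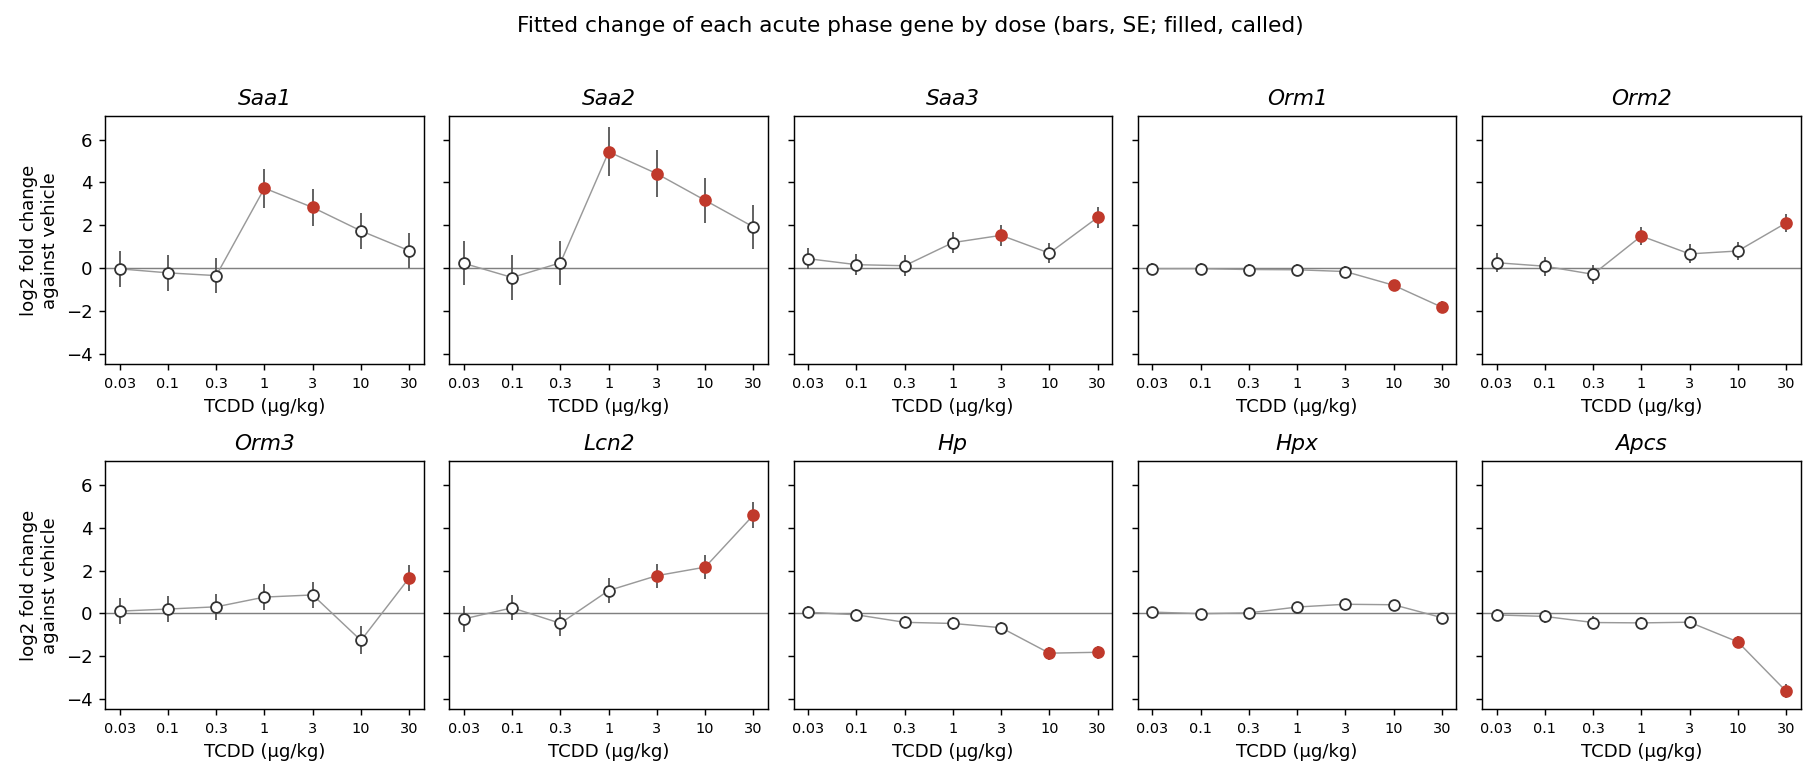
Fitted log2 fold change of each member against vehicle (y axis) at the 7 TCDD doses in μg/kg (x axis); bars are the SE of the fit, filled points were called and open points were not. Saa1 and Saa2 reach 3.73 and 5.43 at 1 μg/kg and come down at higher doses, Lcn2 reaches 4.58 at 30 μg/kg, and Apcs falls to -3.62. The height of Saa1 and Saa2 at 1 μg/kg rests on replicate 3, without which the values are 0.59 and 1.62. Their median levels were 58.6 and 21.3 CPM at 1 μg/kg, 67.5 and 30.0 CPM at 3 μg/kg and 76.3 and 35.1 CPM at 10 μg/kg. At 30 μg/kg the medians were 27.0 and 10.6 CPM.

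Saa1 and Saa2, the liver-made serum amyloids A, were low in vehicle livers and had their highest levels at 1 and 3 μg/kg, in 1 mouse at each dose. Saa1 was 21.1, 39.7, 30.4, 50.9 and 20.4 CPM in the 5 vehicle livers. Values at 1 μg/kg were 58.6, 59.6, 1965, 38.2 and 39.5 CPM. Those at 3 μg/kg were 62.5, 878, 67.5, 91.1 and 59.9 CPM. Replicate 3 at 1 μg/kg and replicate 2 at 3 μg/kg thus stood 40.9-fold and 12.6-fold above the mean of the other 4 mice of their dose. The other 4 mice averaged 49.0 ± 11.7 CPM at 1 μg/kg and 70.3 ± 14.3 CPM at 3 μg/kg (SD), beside 32.5 ± 12.9 CPM in vehicle (SD, n = 5).

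At 10 μg/kg Saa1 was 117, 285, 41.8, 23.8 and 76.3 CPM, and at 30 μg/kg it was 77.4, 24.3, 19.7, 27.0 and 139 CPM. Replicates 1 and 5 at 30 μg/kg were above every vehicle mouse, and the other 3 were inside or below the vehicle range. In edgeR's fit, Saa1 differed from vehicle by a log2 fold change of 3.73 ± 0.91 at 1 μg/kg (SE, adjusted p = 0.0112), 2.84 ± 0.87 at 3 μg/kg (adjusted p = 0.0299), 1.75 ± 0.84 at 10 μg/kg (adjusted p = 0.112) and 0.82 ± 0.83 at 30 μg/kg (adjusted p = 0.417). Groups overlapped vehicle at 1, 10 and 30 μg/kg and did not overlap at 3 μg/kg.

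Saa2 was highest in the same mice, at a lower level. It was 4.68, 8.09, 8.09, 7.14 and 9.60 CPM in vehicle livers. At 1 μg/kg it was 21.3, 34.4, 1518, 18.3 and 18.2 CPM, and at 3 μg/kg it was 29.4, 657, 30.0, 48.3 and 29.3 CPM. All 5 mice at each of these doses were above every vehicle mouse. At 10 μg/kg it was 67.3, 204, 20.8, 8.24 and 35.1 CPM, and at 30 μg/kg 44.3, 9.53, 6.29, 10.6 and 71.9 CPM, so the top dose again divided into 2 high livers and 3 near vehicle. The log2 fold changes were 5.43 ± 1.14 at 1 μg/kg (SE, adjusted p = 0.00248), 4.41 ± 1.09 at 3 μg/kg (adjusted p = 0.00575), 3.17 ± 1.04 at 10 μg/kg (adjusted p = 0.0175) and 1.93 ± 1.01 at 30 μg/kg (adjusted p = 0.103).

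**Figure D2:**
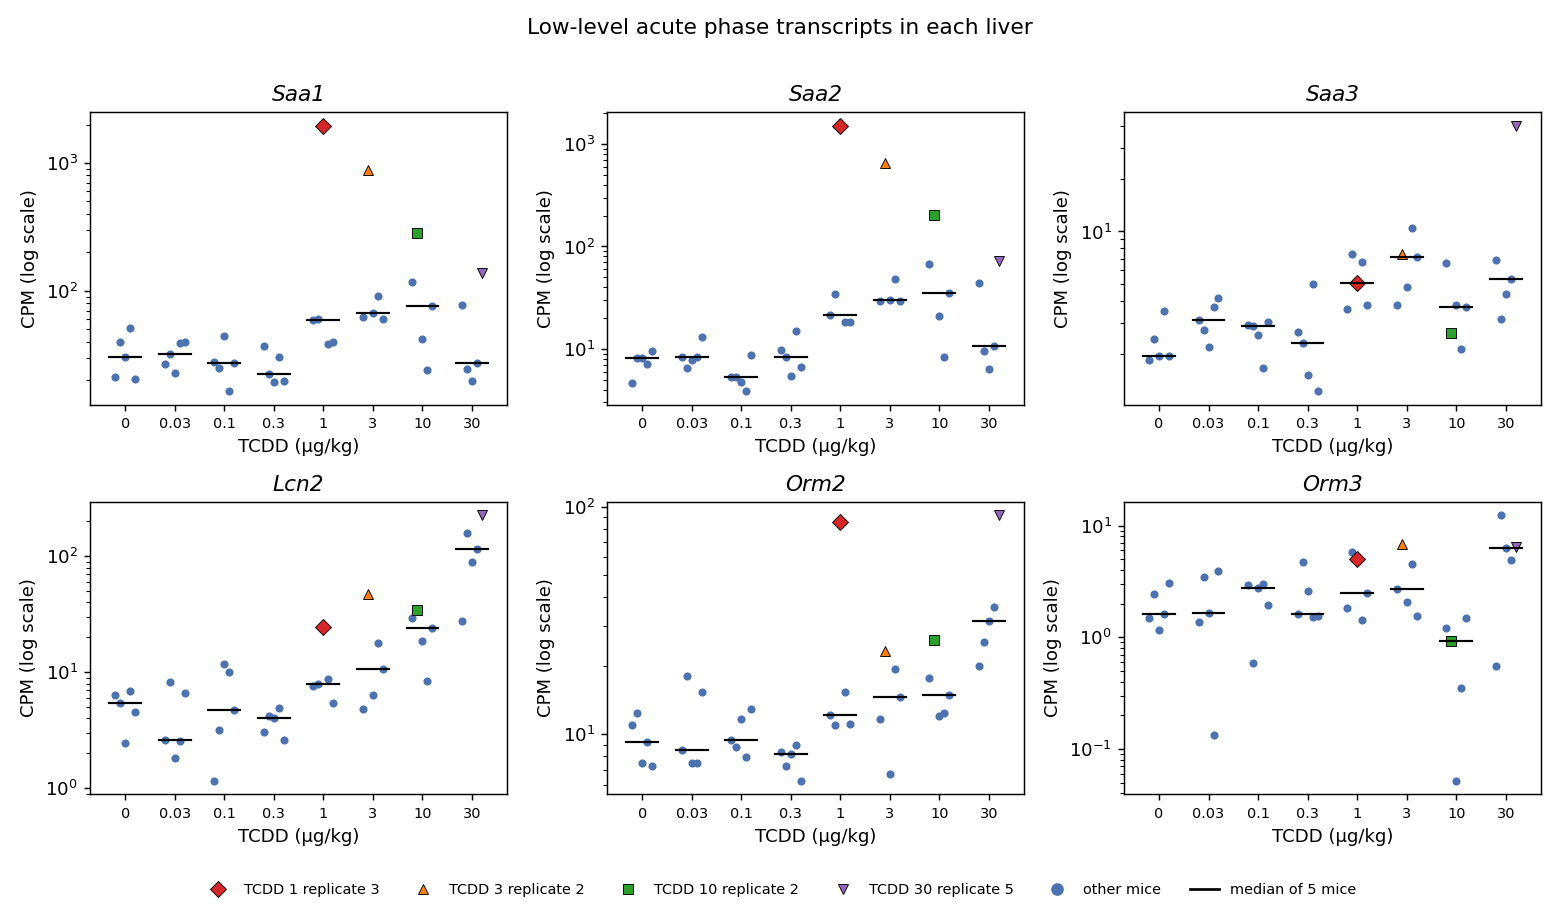
CPM on a log scale (y axis) of 6 members in each liver at each dose in μg/kg (x axis, 0 is vehicle); points are mice, lines are medians of 5, and the 4 coloured markers follow the same mouse from panel to panel. Replicate 3 at 1 μg/kg reads 1965 CPM for Saa1 and 85.3 CPM for Orm2 but 5.10 CPM for Saa3, inside the range of its group.

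The calls at 1 μg/kg rested on replicate 3. Without that mouse, Saa1 stood at 0.59 on the log2 scale (adjusted p = 0.798), Saa2 at 1.62 (adjusted p = 0.356) and Orm2 at 0.39 (adjusted p = 0.724), and no member was called. For 3 μg/kg, the values without replicate 2 were 1.11 for Saa1 (adjusted p = 0.437), 2.19 for Saa2 (adjusted p = 0.153), 1.499 for Saa3 (adjusted p = 0.0587) and 0.95 for Lcn2 (adjusted p = 0.323). For 10 μg/kg, Saa2 without replicate 2 was 2.14 (adjusted p = 0.112). Leaving out these 3 libraries together, was a choice made after their values were seen. Saa2 was then called at 3 μg/kg (2.19, adjusted p = 0.00407), at 10 μg/kg (2.14, adjusted p = 0.00117) and at 30 μg/kg (1.93, adjusted p = 0.000892), while Saa1 was called at no dose. At 3 μg/kg the calls were also near the threshold: without vehicle replicate 1, 2, 3 or 5 Saa2 was the 1 member called, and without TCDD 3 replicate 4 Saa1 and Saa2 were the 2. Without TCDD 3 replicate 2 none of the 4 was called, and the 1 member called was Apcs, which was lower (-0.90, adjusted p = 0.0243). Among libraries with title numbers up to 27, which include both of these high mice, the log2 fold change of Saa1 at 1 μg/kg was 4.51, and among those from 28 it was 0.13. For Saa2 the same values were 6.24 and 1.12, and neither set alone called a member at 1 μg/kg.

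The ratio of Saa2 to Saa1 reads, per base of transcript, gave a second view of the pair that does not depend on library scaling. It was chosen after the values were seen. In the vehicle livers the ratio was 0.222, 0.205, 0.268, 0.141 and 0.473. It was 0.365, 0.581, 0.777, 0.481 and 0.462 at 1 μg/kg. The highest Saa1 mouse of a group had its highest ratio at 1, 3 and 10 μg/kg only. That mouse had the lowest ratio of its group in vehicle (0.141) and at 0.1 and 0.3 μg/kg (0.107 and 0.265). At 30 μg/kg the highest Saa1 mouse, replicate 5, had a ratio of 0.521, below the 0.5755 of replicate 1. The geometric mean ratio was 2.14-fold that of vehicle at 1 μg/kg, 2.20-fold at 3 μg/kg, 2.10-fold at 10 μg/kg and 1.79-fold at 30 μg/kg. By a 2-sided exact permutation test of the log2 ratio, p was 0.0238 at 1, 3 and 10 μg/kg and 0.0317 at 30 μg/kg, and all 4 were 0.0556 after adjustment over the 7 doses, so none passed. The smallest p that 5 mice against 5 allow is 0.00794. Vehicle replicate 5, the high value of its group, decided this: without it the adjusted p was 0.0139 at each of the 4 doses and 0.0333 at 0.3 μg/kg.

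Saa3, a serum amyloid made mainly outside hepatocytes, was lower than Saa1 and Saa2 in every group mean per kilobase of transcript and had its highest value in a mouse at 30 μg/kg. It was 1.84, 2.43, 1.94, 3.50 and 1.93 CPM in vehicle livers and 3.62, 7.47, 5.10, 6.66 and 3.78 CPM at 1 μg/kg, where every mouse was above every vehicle mouse but the gene was not called (log2 fold change 1.198 ± 0.48, SE, adjusted p = 0.185). The 3 μg/kg livers held 3.81, 7.46, 4.83, 10.4 and 7.17 CPM, again without overlap, and Saa3 was called at 1.54 ± 0.48 (adjusted p = 0.0312). The value at 10 μg/kg, 2.12 to 6.62 CPM, was not called (0.71 ± 0.48, adjusted p = 0.277). Saa3 at 30 μg/kg was 6.90, 3.16, 4.39, 5.36 and 40.3 CPM, with the last mouse 8.29-fold above the mean of the other 4, and it was called at 2.37 ± 0.48 (adjusted p = 5.85e-05). The groups overlapped at 30 μg/kg by 1 mouse. Without replicate 5 at 30 μg/kg, Saa3 was still called against vehicle, at 1.07 (adjusted p = 0.0077), and the difference between 30 and 10 μg/kg fell from 1.66 (adjusted p = 0.00433) to 0.36 (adjusted p = 0.434).

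Lcn2, the siderophore binder, had the largest rise of the members at 30 μg/kg. Vehicle livers held 6.42, 5.41, 2.46, 6.93 and 4.51 CPM. Livers at 3 μg/kg held 4.78, 47.6, 6.40, 17.9 and 10.8 CPM, at 10 μg/kg 29.5, 34.5, 18.6, 8.48 and 23.9 CPM, and at 30 μg/kg 27.4, 159, 89.5, 115 and 227 CPM. From 10 μg/kg on, every treated mouse was above every vehicle mouse. The log2 fold change was 1.76 ± 0.57 at 3 μg/kg (SE, adjusted p = 0.038), 2.16 ± 0.57 at 10 μg/kg (adjusted p = 0.00288) and 4.58 ± 0.61 at 30 μg/kg (adjusted p = 3.69e-08), a 23.9-fold rise. The call at 30 μg/kg held in all 22 alternatives, between 3.97 and 5.07, and within title numbers up to 27 and from 28 alone.

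Markers of other cells that make Lcn2 and Saa3 moved with dose. Among all tested genes, 21.8% were called at 10 μg/kg and 42.1% at 30 μg/kg, in either direction. The summed level of 10 neutrophil markers was 2.03 to 3.98 CPM in vehicle livers, 3.89 to 33.8 CPM at 3 μg/kg, 9.60 to 16.6 CPM at 10 μg/kg and 18.4 to 89.0 CPM at 30 μg/kg, where all 6 that passed the filter were called higher. Of these markers Ly6g and Mmp8 were at 0 in every vehicle liver. Ly6g was also at 0 in every liver at 0.03, 0.1, 0.3 and 10 μg/kg, and Ly6g, Ngp, Ltf and Camp did not pass the filter. All 9 macrophage markers were called higher at 10 and 30 μg/kg, with sums of 195 to 265 CPM in vehicle and 675 to 1721 CPM at 30 μg/kg. Cholangiocyte markers, led by Spp1, summed to 37.2 to 48.4 CPM in vehicle and 67.5 to 333.1 CPM at 30 μg/kg, with 4 of 5 called higher and 1 lower. Spp1 made up 137 CPM of the mean sum of 171 CPM at 30 μg/kg, where Krt19, Krt7 and Epcam each had an SD above the mean. At 30 μg/kg replicate 1, the lowest for Lcn2 at 27.4 CPM, was also lowest for all 3 sums, while the highest Lcn2 and macrophage sums fell in replicate 5 and the highest neutrophil and cholangiocyte sums in replicate 2. The part of these cells in the rise of Lcn2 and Saa3 was not tested. Adipocyte markers, of which 2 of 5 passed the filter and none was called, summed to 0 to 5.66 CPM in vehicle and 0 to 0.337 CPM at 30 μg/kg, with up to 36.8 CPM at 0.1 μg/kg and 16.1 CPM at 1 μg/kg. At the top dose, with 42.1% of all genes called, 6 of 8 hepatocyte markers were called lower. Of the other lists, 6 of 6 stellate cell, 5 of 6 lymphocyte and 3 of 5 endothelial markers were called higher there. Their sums went from 176 to 255 CPM up to 617 to 1361 CPM for stellate cells, from 3.23 to 5.32 CPM up to 5.20 to 13.7 CPM for lymphocytes, and from 116 to 160 CPM up to 191 to 254 CPM for endothelium.

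The orosomucoids divided within the family. Orm1, the abundant member, was 541, 578, 664, 721 and 660 CPM in vehicle livers, 361, 534, 219, 295 and 423 CPM at 10 μg/kg and 234, 99.3, 92.9, 104 and 373 CPM at 30 μg/kg. All 5 mice at 10 and at 30 μg/kg were below every vehicle mouse, with log2 fold changes of -0.79 ± 0.26 (SE, adjusted p = 0.0184) and -1.81 ± 0.27 (adjusted p = 3.57e-07). Its call at 10 μg/kg was lost without TCDD 10 replicate 3 (-0.65, adjusted p = 0.069) or replicate 4 (-0.72, adjusted p = 0.0521), with scaling to library totals, and in each set of title numbers alone. Orm2 started far lower, at 10.9, 12.4, 7.51, 9.23 and 7.23 CPM. It was 12.2, 11.0, 85.3, 15.3 and 11.1 CPM at 1 μg/kg and 19.9, 25.5, 31.5, 36.2 and 92.0 CPM at 30 μg/kg, above every vehicle mouse in all 5. Orm2 rose at 30 μg/kg by a log2 fold change of 2.11 ± 0.44 (SE, adjusted p = 9.82e-05). Per kilobase of transcript, Orm1 fell from 816 ± 93.1 to 233 ± 158 CPM between vehicle and 30 μg/kg while Orm2 went from 12.2 ± 2.85 to 52.9 ± 37.6 CPM (SD, n = 5), so Orm1 remained the higher of the pair.

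Orm3, the third gene of this cluster, was near the limit of counting, with 18 to 43 counts per vehicle library and as few as 1 at 10 μg/kg. It was 1.49, 2.43, 1.17, 1.61 and 3.08 CPM in vehicle livers and 1.2, 0.923, 0.0521, 0.353 and 1.5 CPM at 10 μg/kg, where it was not called (log2 fold change -1.26 ± 0.65, SE, adjusted p = 0.142). The top dose gave 0.555, 12.5, 6.29, 4.96 and 6.41 CPM. The groups differed with a log2 fold change of 1.66 ± 0.59 (adjusted p = 0.0165), in spite of replicate 1, which was below every vehicle mouse. Without TCDD 30 replicate 2 the value was 1.21 (adjusted p = 0.0921).

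Haptoglobin and hemopexin, which scavenge hemoglobin and heme, did not move together. Hp was 2159, 2548, 2520, 2364 and 2663 CPM in vehicle livers, and 1767, 1673, 1609, 1849 and 2311 CPM at 0.3 μg/kg, where it was not called. In the 3 μg/kg group 4 mice lay between 1242 and 1434 CPM and replicate 2 at 2513 CPM, and the gene was not called (log2 fold change -0.66 ± 0.29, SE, adjusted p = 0.153). At 10 μg/kg Hp was 731, 913, 423, 393 and 942 CPM and at 30 μg/kg 367, 587, 342, 520 and 1685 CPM, below every vehicle mouse at both doses. Its log2 fold change was -1.85 ± 0.30 at 10 μg/kg (adjusted p = 5.47e-06) and -1.81 ± 0.30 at 30 μg/kg (adjusted p = 2.14e-06), a call that held in all 22 alternatives at each dose.

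Hpx was 2855, 3190, 3564, 3257 and 3632 CPM in vehicle livers. All 5 mice at 3 μg/kg were above every vehicle mouse, at 3683, 5096, 3803, 4280 and 5352 CPM, but the change of 0.43 ± 0.20 on the log2 scale was under 1.5-fold and its adjusted p was 0.189. The top dose gave 3920, 1895, 1748, 2153 and 4711 CPM, with 2 mice above the vehicle range and 3 below it. The log2 fold change there was -0.19 ± 0.20 (adjusted p = 0.428) and turned to 0.27 when libraries were scaled by their totals alone.

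Apcs had the deepest fall of the members at 30 μg/kg. It was 79.8, 64.4, 64.5, 59.5 and 60.8 CPM in vehicle livers, 31.1, 107, 39.7, 36.0 and 33.9 CPM at 3 μg/kg, 22.9, 35.7, 16.1, 19.5 and 37.5 CPM at 10 μg/kg, and 11.5, 5.45, 3.66, 2.30 and 4.09 CPM at 30 μg/kg. Every mouse at 10 and 30 μg/kg was below every vehicle mouse. So was every mouse at 0.3 μg/kg, at 39.0 to 57.4 CPM, where Apcs was not called (log2 fold change -0.42), while the group at 1 μg/kg overlapped vehicle. The log2 fold change was -1.32 ± 0.30 at 10 μg/kg (SE, adjusted p = 0.000561) and -3.62 ± 0.33 at 30 μg/kg (adjusted p = 6.47e-12), a 12.3-fold difference. At 30 μg/kg the call held in all 22 alternatives, between -4.19 and -3.06. In title numbers up to 27 alone the value at 10 μg/kg was -1.26 (adjusted p = 0.0572).

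**Figure D3:**
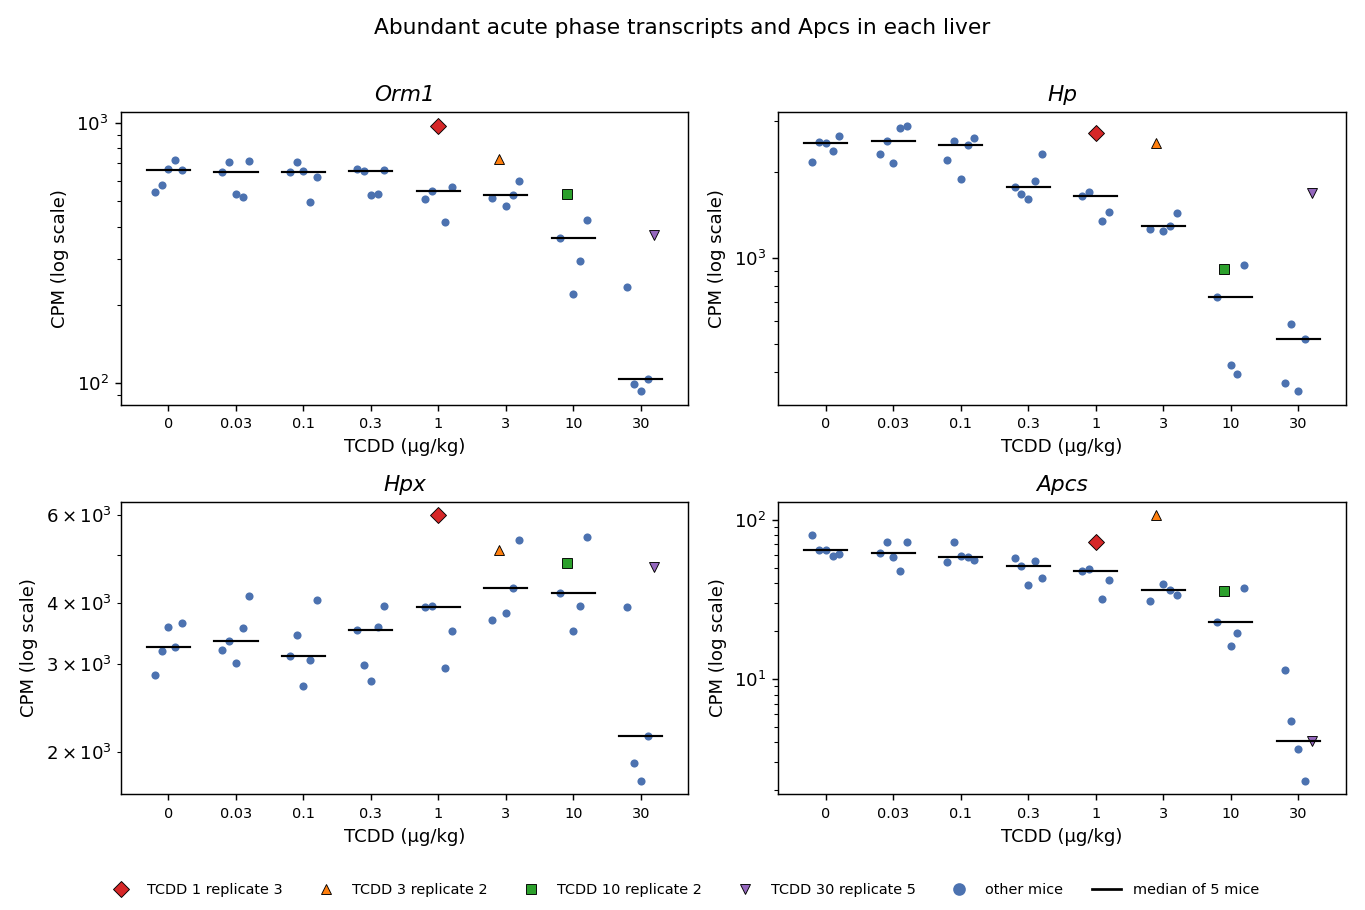
CPM on a log scale (y axis) of Orm1, Hp, Hpx and Apcs in each liver at each dose in μg/kg (x axis, 0 is vehicle), with medians of 5 mice as lines and the same 4 marked mice. The 5 livers at 30 μg/kg lie between 2.30 and 11.5 CPM for Apcs, below all vehicle livers, while for Hpx they lie on both sides of the vehicle range.

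Scaling by library totals alone moved the median log2 fold change of all genes at 30 μg/kg to 0.52. The split of called genes went from 3567 higher and 2909 lower to 6402 higher and 1559 lower. No member that was called at 30 μg/kg changed direction, and Saa2 was called as well. At 10 μg/kg the same scaling took the call from Orm1 (-0.59, adjusted p = 0.0547) and gave one to Hpx (0.61, adjusted p = 0.00424). At 0.3 μg/kg 1 member, Apcs, did not overlap vehicle, and the share of all genes was not counted at that dose. Groups that did not overlap vehicle were also counted for 2 members at 1 μg/kg (7.45% of all genes), 4 at 3 μg/kg (9.72%), 4 at 10 μg/kg (23%) and 5 at 30 μg/kg (37.6%). At the top dose these were Orm1, Orm2, Lcn2, Hp and Apcs.

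Neighbouring doses were compared next. From 0.3 to 1 μg/kg Saa1 and Saa2 were called higher, at 4.07 ± 0.92 and 5.17 ± 1.12 on the log2 scale (SE, adjusted p = 0.0354 and 0.029), against 0.241% of all genes. Both calls rested on TCDD 1 replicate 3: without it the steps were 0.93 (adjusted p = 1) and 1.36 (adjusted p = 0.943), and no member was called. From 1 to 3 μg/kg no member was called, and 0.0585% of genes were. In edgeR's test no member was below an unadjusted p of 0.05 at that step, and other tools were not run on it. From 3 to 10 μg/kg, where 6.77% of genes were called, Orm3, Hp and Apcs were lower by 2.12 ± 0.64, 1.19 ± 0.29 and 0.91 ± 0.29 (fitted log2 differences of -2.12, -1.19 and -0.91, SE, adjusted p = 0.0275, 0.00632 and 0.0411). From 10 to 30 μg/kg, where 21.1% of genes were called, 7 members were called: Saa3, Orm2, Orm3 and Lcn2 higher, and Orm1, Hpx and Apcs lower. The largest of these steps were 2.91 ± 0.64 for Orm3 (adjusted p = 0.000433), 2.42 ± 0.54 for Lcn2 (adjusted p = 0.000517) and -2.30 ± 0.32 for Apcs (adjusted p = 5.79e-07). Hpx, at -0.60 ± 0.20 (adjusted p = 0.0192), sat at the fold threshold and was called in 11 of 22 alternatives. Orm2 lost its call at this step without TCDD 30 replicate 5 (0.75, adjusted p = 0.172). Hp did not differ past the threshold between 10 and 30 μg/kg (0.04 ± 0.29, adjusted p = 0.933), but without TCDD 30 replicate 5 it was -0.61 with an adjusted p of 0.0427. A linear slope over the 8 dose steps was past an adjusted p of 0.05 for 8 members and for 57.7% of all genes. It was positive for Saa1, Saa2, Saa3, Orm2 and Lcn2 and negative for Orm1, Hp and Apcs, although the levels of Saa1 and Saa2 were not ordered by dose above 1 μg/kg.

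Single mice set much of the spread within a dose, and the same mouse was high for most members. At 1 μg/kg replicate 3 had the highest level of its group for 8 of 10 members, all but Saa3 and Orm3, while it was highest for 16.1% of all tested genes. Replicate 2 at 3 μg/kg was highest for 8 of 10, all but Saa3 and Hpx, and for 22.1% of all genes. At 10 μg/kg replicate 2 was highest for 5 of 10 (19.2% of genes), and at 30 μg/kg replicate 5 for 8 of 10, all but Orm3 and Apcs (22.7%). Among 17 other positive acute phase genes these mice were highest for 9, 15, 4 and 4. Other mice led these 17 genes at the higher doses: replicate 5 at 10 μg/kg with 9, and replicate 1 at 30 μg/kg with 10. The pattern was not limited to high doses: at 0.03 μg/kg, where no member was called, replicate 5 was highest for 7 of 10 members (28.0% of all genes).

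The high mice differed from each other outside the members. The library of replicate 2 at 3 μg/kg had the lowest share of reads in genes of all 40 (71.3%), the highest unmapped share (11.3%, with 7.72% the next) and the highest share outside annotated features (7.36%), and the part of this in its values was not tested. For replicate 3 at 1 μg/kg the same shares were 76.8%, 6.35% and 5.69%. In replicate 2 at 3 μg/kg Socs3, the feedback inhibitor that STAT3 induces, stood at 82.2 CPM with the other 4 mice between 4.72 and 14.0 CPM, and Stat3 itself at 300.3 CPM with the others between 93.1 and 119 CPM. Neutrophil markers summed to 33.8 CPM in that mouse and to 3.89 to 6.41 CPM in the others. In replicate 3 at 1 μg/kg Socs3 was 5.73 CPM, inside the 4.63 to 7.35 CPM of its group, Stat3 was 160 CPM with the others between 101 and 118 CPM, and neutrophil markers summed to 6.36 CPM with the others between 4.02 and 4.66 CPM. Macrophage markers lay inside the range of the other mice for both (377 and 474 CPM). Cyp1a1 was 6047 CPM in replicate 3 at 1 μg/kg, inside its group, and 5294 CPM in replicate 2 at 3 μg/kg, the lowest of its group.

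**Figure D4:**
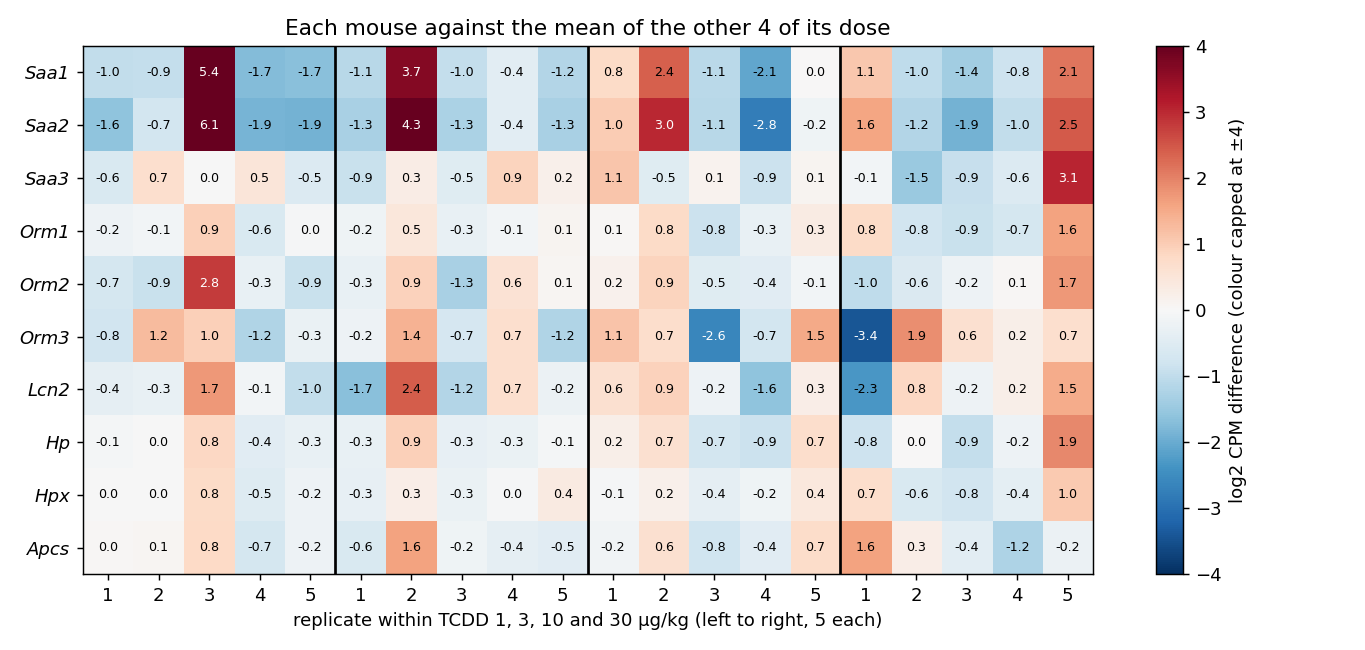
Difference in log2 CPM between each mouse and the mean of the other 4 of its dose (colour, numbers in cells) for 10 members (rows) and the 5 replicates at 1, 3, 10 and 30 μg/kg (columns, left to right). Replicate 3 at 1 μg/kg, replicate 2 at 3 μg/kg and replicate 5 at 30 μg/kg are positive in most rows, up to 6.09 for Saa2.

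Other genes of the hepatic acute phase were mostly lower at the top dose. Of 18 positive acute phase genes outside the members, 17 passed the filter and none was called at 0.03 to 1 μg/kg. At 3 μg/kg 2 rose, at 10 μg/kg 3 rose and 6 fell, and at 30 μg/kg 3 rose and 13 fell, with a median of -1.38 (all genes called: 6.75%, 21.8% and 42.1% at these doses). The 2 at 3 μg/kg, Mt1 and Steap4, were not called without TCDD 3 replicate 2 (0.88 and 0.04, adjusted p = 0.294 and 0.894). The falls included the fibrinogen chains Fga (log2 fold change -2.94, adjusted p = 7.62e-12) and Fgg (-2.90, adjusted p = 3.06e-11), which form the clot. Saa4 also fell (198 ± 17.9 to 22.4 ± 24.5 CPM, SD, n = 5, -3.15, adjusted p = 9.07e-08), and the list counts it although it is the constitutive serum amyloid. The rises were Il1rn, the interleukin-1 receptor antagonist (0.986 ± 0.478 to 26.4 ± 12.6 CPM, 4.71, adjusted p = 5.83e-12), Mt1, a metallothionein (3.51, adjusted p = 2.4e-06), and Cd14, a coreceptor for lipopolysaccharide that macrophages carry (2.85, adjusted p = 7.33e-11). Steap4, a metalloreductase, was 62.1 ± 2.91 and 69.6 ± 13.0 CPM and not called (0.16, adjusted p = 0.594).

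Of the 10 negative acute phase genes, which encode plasma proteins that drop in inflammation, 7 were lower at 30 μg/kg. At 1 μg/kg 1 was higher and 2 lower, at 3 and 10 μg/kg 1 was higher and 3 lower, at 30 μg/kg 1 was higher and 7 lower, with a median of -1.51, and none was called below 1 μg/kg. All genes called were 2.78%, 6.75%, 21.8% and 42.1% at 1, 3, 10 and 30 μg/kg. Apoa1, the main protein of high density lipoprotein, fell from 7412 ± 878 to 809 ± 492 CPM (log2 fold change -3.20, adjusted p = 1.31e-11). Apoa2, its partner (-2.41), Igf1, a growth factor (-1.60), Ahsg, which encodes fetuin (-1.58), Ttr, the thyroid hormone carrier (-1.54), and Serpinc1, antithrombin (-1.48) were lower with adjusted p-values up to 1.17e-06. The gene called higher was Serpina6, the corticosteroid carrier (0.81, adjusted p = 0.00861), named after its value was seen. Trf, the iron carrier, was 17645 ± 1593 and 14157 ± 4995 CPM and not called (-0.32, adjusted p = 0.122), and its sign turned with scaling to library totals.

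**Figure D5:**
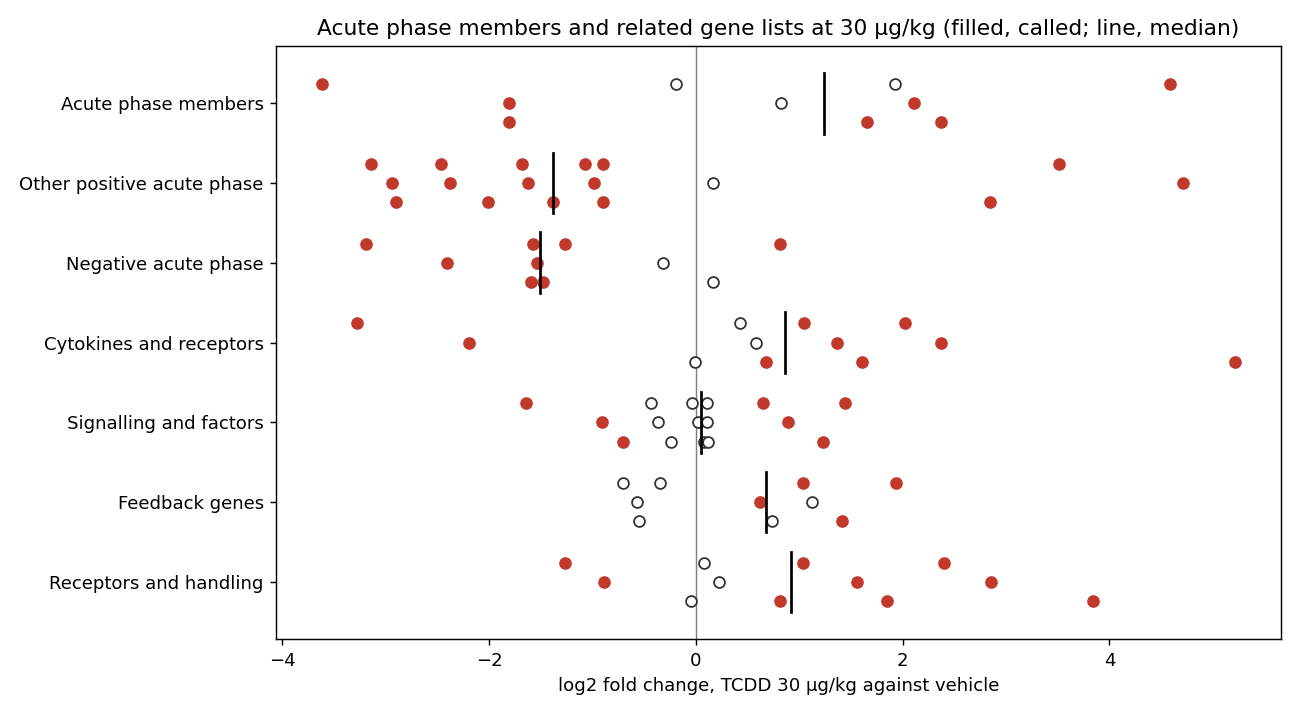
Log2 fold change at 30 μg/kg against vehicle (x axis) for each tested gene of the members and of 6 related lists (y axis); filled points were called, open points were not, and the vertical line is the list's median. The medians of other positive and of negative acute phase genes are -1.38 and -1.51, while that of the members is 1.24.

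Of 16 cytokines and cytokine receptors that drive the response, 12 passed the filter. None was called at 0.03 to 1 μg/kg, 3 rose at 3 μg/kg, 5 rose and 2 fell at 10 μg/kg, and 7 rose and 2 fell at 30 μg/kg, with a median of 0.86. The shares of all genes called at 3, 10 and 30 μg/kg were 6.75%, 21.8% and 42.1%. The 3 at 3 μg/kg, Il1b, Il1r1 and Tnfrsf1a, all lost the call without TCDD 3 replicate 2, at 1.05, 0.35 and 0.47 (adjusted p = 0.146, 0.427 and 0.016, the last under 1.5-fold). Il6 was barely counted, with 0 to 4 counts in any library. Lif, an interleukin-6 family cytokine named after its values were seen, had 0 to 2 counts in vehicle libraries, 2 to 10 at 10 μg/kg and 16 to 62 at 30 μg/kg, and was called at both doses (adjusted p = 0.0297 and 2.99e-06). Il1b went from 0.640 ± 0.354 CPM in vehicle to 2.10 ± 1.69 at 3 μg/kg and 3.42 ± 1.25 at 30 μg/kg (SD, n = 5), with log2 fold changes of 1.67 (adjusted p = 0.0125) and 2.37 (adjusted p = 2.42e-05). Tnf, at 3 to 8 counts per vehicle library, was called at 30 μg/kg only (2.02, adjusted p = 0.00533). Il1a (1.04, adjusted p = 0.00241) and the receptors Osmr (1.60, adjusted p = 1.38e-06), Il1r1 (1.36, adjusted p = 0.00037) and Tnfrsf1a (0.68, adjusted p = 5.51e-05) rose. The receptor subunits Il1rap (158 ± 15.0 to 16.3 ± 13.7 CPM, -3.28, adjusted p = 6.5e-13) and Lifr (-2.20, adjusted p = 1.27e-11) fell. Il6st, the gp130 subunit that the family shares, was 154 ± 4.76 and 208 ± 22.3 CPM and under 1.5-fold (0.43, adjusted p = 0.00121).

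Among 16 signal transducers and transcription factors, 1 was called higher at 1 μg/kg, none at 3 μg/kg, 4 rose and 1 fell at 10 μg/kg, and 4 rose and 3 fell at 30 μg/kg. Over all genes 2.78%, 6.75%, 21.8% and 42.1% were called at these doses, and the 7 of 16 at 30 μg/kg was close to that share. None was called at the 3 lowest doses, and the median at 30 μg/kg was 0.05. Stat3 was 107 ± 5.70 CPM in vehicle and 79.2 ± 9.06 CPM at 30 μg/kg and was not called (-0.44, adjusted p = 0.0444), and its sign turned with scaling to library totals. The C/EBP factors moved apart: Cebpa fell (459 ± 56.9 to 147 ± 25.4 CPM, -1.65, adjusted p = 2.08e-11), while Cebpb (0.89, adjusted p = 0.0389) and Cebpd (1.22, adjusted p = 0.00516) rose at 30 μg/kg as they did at 10 μg/kg (0.99 and 1.16, adjusted p = 0.0368 and 0.015). Without TCDD 30 replicate 5 Cebpb was not called at 30 μg/kg (0.74, adjusted p = 0.111). Relb, of the NF-kB family, rose (1.45, adjusted p = 0.000743). Creb3l3, a factor of the hepatocyte, fell (-0.70, adjusted p = 6.18e-08), but this call did not hold with library totals. Hnf4a was 615 ± 102 and 477 ± 79.1 CPM and not called (-0.36, adjusted p = 0.0121).

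Of 10 feedback genes that STAT3 and NF-kB switch on, 1 was called higher at 3 μg/kg, 2 at 10 μg/kg and 4 at 30 μg/kg, with none at lower doses and none lower. These counts were close to the 6.75%, 21.8% and 42.1% of all genes called. Socs3 was 7.23 ± 1.67 CPM in vehicle, 23.6 ± 32.9 at 3 μg/kg and 19.2 ± 7.62 at 30 μg/kg (SD, n = 5), with log2 fold changes of 1.71 (adjusted p = 0.0461) and 1.41 (adjusted p = 0.0314). Without TCDD 3 replicate 2 the value at 3 μg/kg was 0.32 (adjusted p = 0.752), and without TCDD 30 replicate 5 that at 30 μg/kg was 1.27 (adjusted p = 0.0693). Tnfaip3, which ends NF-kB signalling (1.94, adjusted p = 5.98e-07), Ptpn1, a phosphatase (1.03, adjusted p = 4.54e-06), and Nfkbiz (0.62, adjusted p = 0.0301) were the others at the top dose. Bcl3 was 27.9 ± 6.13 and 17.1 ± 6.87 CPM and not called (-0.71, adjusted p = 0.0517).

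Genes that receive or handle what the members carry were followed last. Of 12, none was called up to 1 μg/kg, 1 was higher at 3 μg/kg, 5 were higher at 10 μg/kg, and 7 were higher and 2 lower at 30 μg/kg, with a median of 0.92. Beside them, 6.75%, 21.8% and 42.1% of all genes were called at 3, 10 and 30 μg/kg. The 1 at 3 μg/kg, Hmox1, was not called without TCDD 3 replicate 2 (0.81, adjusted p = 0.0704). Hmox1, which breaks down heme, went from 15.0 ± 1.501 to 215 ± 107 CPM (3.84, adjusted p = 1.26e-13) and Blvrb, biliverdin reductase B, from 126 ± 15.1 to 370 ± 140 CPM (1.56, adjusted p = 5.61e-09). Cd163, the haptoglobin-hemoglobin receptor of macrophages, rose (1.04, adjusted p = 0.000139). So did the pattern receptors Tlr4 (2.40, adjusted p = 1.43e-07) and Tlr2 (1.85, adjusted p = 1.06e-05), which serum amyloid A can engage. Scarb1, the lipoprotein receptor, fell (202 ± 33.6 to 84.2 ± 8.75 CPM, -1.26, adjusted p = 4.87e-08). Hbb-bs, the beta globin transcript of red cells, was 116 ± 22.0 and 122 ± 83.1 CPM and not called (0.07, adjusted p = 0.842).

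The genes outside the list that were most like each member over the 40 livers, by Pearson's r of log2 CPM, are a description, since all 40 share the dose series. Other members were left out of this ranking. Apcs was most like the fibrinogen chains Fgb, Fga and Fgg (r = 0.973, 0.971 and 0.971), and Orm1 like Apon, Saa4 and Wfdc21 (0.952, 0.947 and 0.944). Hp was most like Lbp, the lipopolysaccharide binding protein (0.928), then Klhdc7a and St6galnac6 (0.909 and 0.901), and Hpx like Vtn, vitronectin (0.840), Lcat and Mif4gd (0.818 and 0.808). Lcn2 was most like Ctss, Msn and Pla2g7 (0.904, 0.900 and 0.899), genes that macrophages express. The likeness was weaker for Saa3 (Parp10, Tgtp2 and H2-D1, 0.715 to 0.728), Orm2 (Trpv2, Fermt3 and Unc93b1, 0.746 to 0.777) and Orm3 (Abcg5, Gsta2 and Gstm4, 0.637 to 0.650). For Saa1 and Saa2, Jak3 came first at 0.727 and 0.785.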

How the data were processed

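Liver RNA from 40 mice was sequenced as 1 library each, and the groups were taken from the treatment labels. The submitters' processing notes name FastQC 0.11.7, Trimmomatic 0.39 and STAR 2.7.3a, and the builds GRCm39 and mm10 without saying which table used which. The authors deposited 1 table of read counts per gene for each library, in which multimapped reads are kept apart, and 1 table of normalized log2 values, whose method is not given in the sources used here. The unstranded count column was used, since the first strand held 50.0% to 50.3% of reads. Rows that name no gene were left out of library sizes, so genes held 71.3% to 80.8% of reads, and multimapped reads made up 5.24% to 7.43%.

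Genes were filtered with filterByExpr (minimum count 10, minimum total 15), which kept 15373. Counts were fitted with edgeR 4.0.16 (R 4.3.3), with TMM factors, 1 mean per dose over all 40 libraries and a 2-sided quasi-likelihood test with Benjamini-Hochberg adjustment within each comparison, so all doses share 1 estimate of the spread and the same vehicle mice. Calls needed an adjusted p under 0.05 and 1.5-fold. The slope used dose steps 0 to 7. CPM used TMM-scaled library sizes, log2 CPM a prior count of 2, and values per kilobase the length of the first transcript. Alternatives were DESeq2 1.42.0, limma 3.58.1 on the deposited log2 values, scaling by library totals, other filters, each title-number set alone and each replicate left out in turn. The fit was tested on simulated data that gave every gene the same spread and set no mouse apart, so that test does not cover calls that rest on single mice. The labels do not say that replicates came from separate cages or days, and p-values measure only the spread between these mice. Precision at low counts is limited by depth, as for Orm3, Tnf and Il6. Members and lists were chosen with earlier results of these data known. From the other lists, up to 6 called genes with the largest change at 30 μg/kg and a mean of at least 100 counts in the higher group were named, then the most abundant uncalled gene. A gene that this rule names among the signal transducers and transcription factors is not reported here. Il6, Il1b, Tnf, Stat3, Cebpb, Cebpd and Socs3 were always named, and the 3 genes outside the members most like each member were ranked.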

Additional observations from a re-analysis of the deposited data

Results flagged for a closer look

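In 11 of the 80 groups of 5 mice, 1 mouse lay farther from the rest than Dixon's 95% limit for the gap over the range. For normally distributed values in independent groups, about 1 group in 20 passes this limit. The groups here are different members in the same mice, so the 11 cannot be set against that rate. TCDD 1 replicate 3 was high for Saa1 (1965 CPM), Saa2 (1518 CPM) and Orm2 (85.3 CPM). TCDD 3 replicate 2 was high for Saa1 (878 CPM), Saa2 (657 CPM), Hp (2513 CPM) and Apcs (107 CPM). Both mice carry calls described above, which are given there with and without them. Apcs was also high in vehicle replicate 1 (79.8 CPM) and in TCDD 0.1 replicate 2 (72.2 CPM). Saa3 was low in TCDD 0.1 replicate 4 (1.66 CPM), with a ratio of 0.7105 that barely passed the limit, and Orm3 in TCDD 0.1 replicate 2 (0.588 CPM).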

How the results depend on the processing

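No paired analysis was possible because the labels number no replicates and tie no mouse to one of another dose, so the numbers used here only name mice. Over 37 gene results, 814 comparisons with an alternative were made, of which 706 kept direction and side of the threshold, 94 lost the call, 6 gained one and 8 turned direction. Title numbers up to 27 alone called 0 members at 1 μg/kg, 0 at 3, 1 at 10, 2 for 30 against 10 and 5 for the slope, with 5 cytokine and receptor genes and 1 feedback gene at 30. Those from 28 alone called 0 members at 1, 0 at 3 and 2 at 10, with 4 signal genes at 30. Fewer mice enter these fits. The strand column with more reads called 2 members at 3, the 2 groups alone called 4 for 30 against 10, limma called 0 at 1 and 2 at 3, and leaving out 3 libraries together (chosen after seeing the data, as was limma) called 0 at 1. With 1 replicate left out, the count ranged from 0 to 3 at 1 μg/kg and from 1 to 4 at 3. Hpx at 30 turned to 0.268 with library totals, which changed called genes from 330 higher and 98 lower to 461 and 67 at 1, from 697 and 341 to 862 and 250 at 3, from 2097 and 1250 to 2980 and 756 at 10, and from 3567 and 2909 to 6402 and 1559 at 30. Hp for 30 against 10, uncalled at 0.04, turned to -0.78 in title numbers up to 27 and -0.13 with limma, and ranged from -0.61 to 0.20 with 1 replicate left out. Saa1 and Saa2 for 30 against 10 turned to 0.36 and 0.45 in title numbers from 28. The log2 Saa2 to Saa1 ratio at 0.03 ranged from -0.0027 to 0.43 with 1 replicate left out. The cause of these changes was not tested. Depth limits Orm3, Tnf and Il6.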
